A study of Mus musculus with 2 samples.

Results

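Autophagosomes form on a membrane that is marked by lipid-anchored Atg8 proteins, and 10 genes for the enzymes and scaffolds of that marking were examined here in MIN6 cells, a mouse insulinoma line that secretes insulin. The genes were taken by symbol (Atg3, Atg4a, Atg4b, Atg4c, Atg4d, Atg5, Atg7, Atg10, Atg12 and Atg16l1), and the choosing rule uses no measured value, although earlier results of these data were known when the list was drawn up. All 10 were found among the 21542 genes of the deposited table, and all 10 averaged at least 100 reads over the libraries. RNA sequencing compared 1 library of cells given a control vector with 1 library of cells given an expression vector for GR, the glucocorticoid receptor. Both came from the same line (strain C57BL/6 in the labels), kept in 25 mM glucose and 15% serum and transfected with 4 ug of plasmid by lipofection. The sources used here give neither the share of cells that took up plasmid, nor the species of the GR cDNA, the harvest time or whether a glucocorticoid was added. Each vector has 1 library, so no difference below was set against a spread between replicates.

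The pathway works as a pair of linked ubiquitin-like reactions. Atg7, an E1-like enzyme, activates both the modifier Atg12 and the Atg8 proteins (the LC3 and GABARAP families). Atg10, an E2-like enzyme, passes Atg12 on to Atg5, and the Atg12-Atg5 conjugate binds the scaffold Atg16l1. That complex directs the other E2-like enzyme, Atg3, to join Atg8 proteins to phosphatidylethanolamine, while the Atg4 cysteine proteases trim Atg8 precursors and later cut the lipid-bound form loose. In the beta cell, autophagy is known to clear damaged organelles and surplus insulin granules.

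Of the 10 genes, Atg10 stood farthest from 1, with a GR to control fold of 1.40, and most of the others lay close to 1. Folds of at least 1.1 in favour of the GR library were seen for 3 genes (Atg10, Atg4a and Atg4c), and 0 genes were as far below 1. Among all 11070 genes averaging at least 100 reads, 10.7% were at least 1.1-fold higher and 10.4% at least 1.1-fold lower. The 3 genes past that fold were the 3 with the fewest reads, and among the 2082 genes with a mean of 100 to 300 reads the shares were 24.1% higher and 24.5% lower. The other 7 members, all with a mean over 300 reads, held 0 calls, beside 9.46% higher and 9.35% lower among 6556 genes with a mean of 300 to 2000 reads.

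The upstream sequence of the genes is shown here because GR and the autophagy regulator TFEB are DNA-binding factors, and because the genes with the highest folds can then be set beside the rest. RefSeq windows of 300 bases (250 before to 50 after a transcript start, GRCm38.p6) were at hand for 8 of the 10 genes, with 10 windows in all since Atg4a and Atg4c have a pair each. Capitals mark, on either strand, the E-box core CACGTG found within the TFEB motif and the hexamer AGAACA, which in inverted repeat makes a glucocorticoid response element. The windows upstream of Atg10 and of the first start of Atg4c hold neither motif, so they carry no capitals.
Atg10 upstream window, chr13:91223988-91224237, minus strand: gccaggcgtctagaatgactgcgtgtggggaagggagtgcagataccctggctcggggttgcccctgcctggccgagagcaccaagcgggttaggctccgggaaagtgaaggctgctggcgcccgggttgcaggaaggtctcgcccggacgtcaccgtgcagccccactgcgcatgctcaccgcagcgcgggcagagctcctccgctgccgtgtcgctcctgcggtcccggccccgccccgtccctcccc
Atg4c upstream window, chr4:99193684-99193933, plus strand: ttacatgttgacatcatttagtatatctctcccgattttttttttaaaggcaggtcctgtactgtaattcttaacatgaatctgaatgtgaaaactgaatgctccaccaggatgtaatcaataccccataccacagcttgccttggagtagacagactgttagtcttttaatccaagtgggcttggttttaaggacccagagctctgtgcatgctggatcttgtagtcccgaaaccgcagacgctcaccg
Atg3 E-box pair, chr16:45158735-45158764, plus strand: CACGTGtcctgggagagtcgagtCACGTGa
Atg5 E-box, chr10:44268313-44268338, plus strand: cggagcgcttgcCACGTGgtcttggt
Atg5 receptor hexamer, chr10:44268136-44268165, plus strand: cctttatttctcTGTTCTtccacaactgtc
Atg4d receptor hexamer, chr9:21265092-21265121, plus strand: gagatgtcattcAGAACAagggtgtgcaag

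In the window of Atg3, the gene with the lowest fold, CACGTG starts 94 and 71 bases before the RefSeq start. That start lies 44 bases from the nearest GENCODE start. The window also holds exons of the neighbouring gene Slc35a5, so these matches cannot be assigned to Atg3 alone. Atg5 has CACGTG at 14 bases and the hexamer at 191, and Atg4d has the hexamer at 181 bases. Atg7 has CACGTG 132 bases before a RefSeq start that lies 9066 bases from the nearest GENCODE start. The remaining match was a hexamer 42 bases after the first Atg4a start, which is 3062 bases from the nearest GENCODE start. CACGTG thus occurred in 3 of the 10 windows and in 7.15% of all 32851 windows of this length, and the hexamer in 3 and 18.97%. CACGTG itself holds a CpG, and the windows overall were not matched to these 10 for CpG content. The full element, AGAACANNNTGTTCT, was in 0 of the 10 and in 3 windows overall (0.00913%). CpG dinucleotides ranged from 3 in the first Atg4a window to 55 in that of Atg4b, beside a median of 7 over all windows, and the Atg10 window had 33. A match describes letters only, and a window without one says nothing of binding elsewhere.

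Nr3c1, the gene of the receptor itself, checks the labels: it had 2645 reads in control-vector cells and 5202 in GR-vector cells, a fold of 1.97 (1.88 to 2.07 by counting error). Reads summed over genes were 18537326 and 18525668. The 12 beta cell markers examined were all measured and took 4.53% and 4.28% of the reads, from Ins2 with 407986 and 373033 down to Ucn3 with 159 and 145. Among markers of other cells, 3 of 5 for alpha cells summed to 552 and 637 reads, nearly all of them Gcg, 1 of 4 for delta and PP cells (Sst) to 92 and 114, and 3 of 5 for duct cells to 2757 and 2505. Most of the latter were Krt7, with 2429 and 2166 reads and a fold of 0.894 (0.844 to 0.948), more reads than any of the 10 genes had. Acinar (1 of 7), fibroblast (4 of 5), endothelial (2 of 4) and immune markers (3 of 6) summed to 7 and 13, 85 and 105, 21 and 14, and 212 and 214 reads. The part of any such cells in the values below was not tested.

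Activation and the Atg12 branch come first. Coordinates below are those of the deposited table, which names no build; 96.8% of its matched genes have the coordinates of GENCODE M21 (GRCm38). Atg10 and Atg12 lie on the minus strand and the other 8 on the plus strand. Atg7 (ENSMUSG00000030314, chromosome 6, 114643097 to 114860614) had 563 reads in control-vector cells and 533 in GR-vector cells. Its fold was 0.949, with an exact 95% Clopper-Pearson interval of 0.842 to 1.07. This interval, like all those below, covers counting error only. In these bulk samples, fewer cells carrying a transcript and less of it per cell cannot be told apart.

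Atg10 (ENSMUSG00000021619, chromosome 13, 90935356 to 91223968) had 181 and 252 reads, so the GR library was the higher. The fold of 1.40 had an interval of 1.15 to 1.70, which leaves out 1, also at 99% (1.08 to 1.81). Only 1.15% of genes with a mean of 100 to 300 reads had a fold this high or higher (24 of 2082), and the central 95% of those genes ran from 0.761 to 1.32. Atg10 was singled out as the farthest from 1 of the 10 genes, and that share takes no account of this choice. The authors' deposited table lists for Atg10 a p of 0.279 unadjusted and of 1 adjusted, which match an exact test in edgeR with a preset spread.

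Atg12 (ENSMUSG00000032905, chromosome 18, 46732417 to 46741579), the modifier, had 987 and 1078 reads. Its fold was 1.095, just short of the limit used for a call, with an interval of 1.004 to 1.195. As many as 10.2% of genes with 300 to 2000 reads were at least as high. Atg5 (ENSMUSG00000038160, chromosome 10, 44268358 to 44364291), the protein that receives Atg12, had 805 and 809 reads and a fold of 1.01 (0.913 to 1.11). Atg16l1 (ENSMUSG00000026289, chromosome 1, 87755870 to 87792428), the scaffold, had 939 and 953 reads and a fold of 1.02 (0.929 to 1.12). The modifier and its target thus differed by a ratio of folds of 1.09, with an interval of 0.952 to 1.24 that holds 1.

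**Figure D1:**
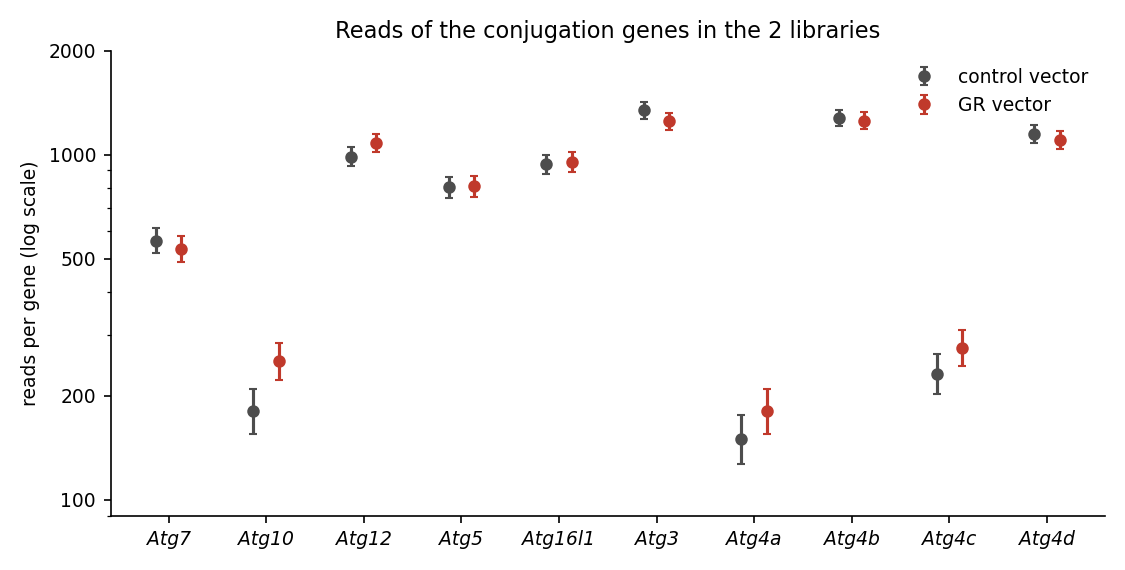
Reads of the 10 genes (vertical axis, log scale) in the control vector library (grey) and the GR vector library (red), 1 point per library with its exact 95% Poisson interval. Atg10, Atg4a and Atg4c are the 3 least read genes, and of these 3 only Atg10 (181 and 252 reads) has intervals that do not overlap.

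On the Atg8 branch, Atg3 (ENSMUSG00000022663, chromosome 16, 45158785 to 45188538), the E2-like enzyme for Atg8 proteins, was the lowest of the 10. It had 1343 and 1249 reads, a fold of 0.933 (0.863 to 1.01). Of genes with 300 to 2000 reads, 16.0% were at or under that value. The E2-like enzymes of the 2 branches therefore stood at opposite ends of the list. Their ratio of folds, Atg10 over Atg3, was 1.50, with an exact interval of 1.21 to 1.85. Atg10 was also high against Atg7 (ratio 1.47, 1.17 to 1.85) and against its own substrate Atg12 (1.27, 1.03 to 1.58). These 4 pairs, the modifier with its target among them, were picked with the folds known, and their intervals compare 2 libraries.

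**Figure D2:**
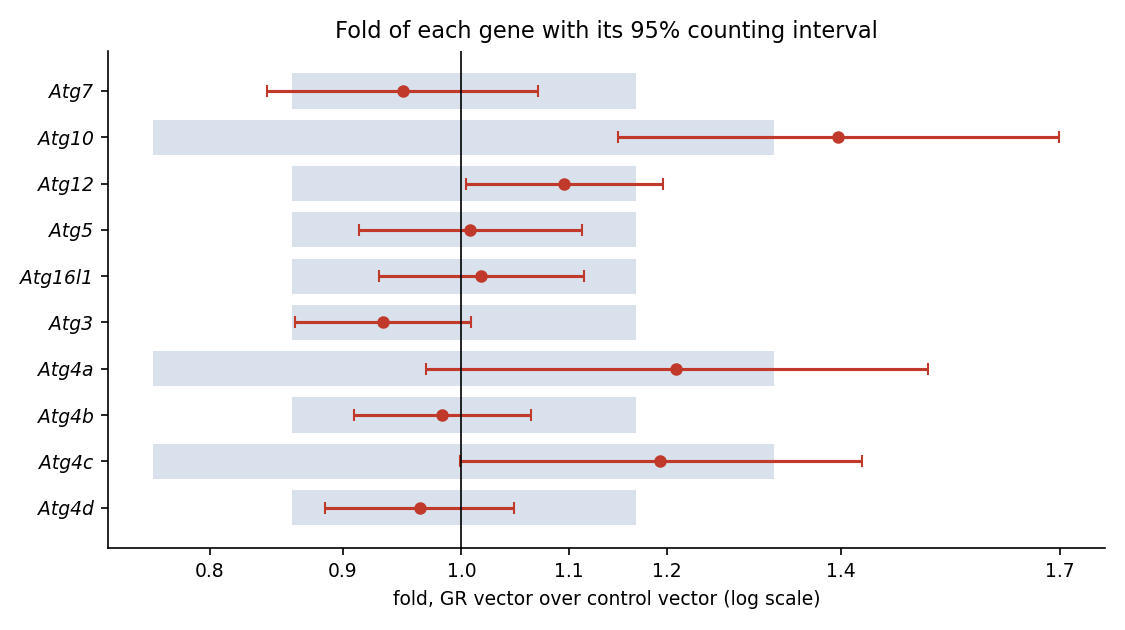
GR to control fold for each gene (horizontal axis, log scale), with its exact 95% counting interval in red. Blue bands hold the central 95% of all genes with like reads (0.761 to 1.32 for a mean of 100 to 300 reads, 0.861 to 1.17 for 300 to 2000), and of the 10 points only Atg10 lies outside its band.

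The Atg4 proteases divided by abundance. Atg4b (ENSMUSG00000026280, chromosome 1, 93751500 to 93790610), the family member known for the broadest activity on Atg8 precursors, had 1279 and 1254 reads and a fold of 0.983 (0.909 to 1.06). Atg4d (ENSMUSG00000002820, chromosome 9, 21265293 to 21277772) had 1147 and 1102 reads and a fold of 0.964 (0.886 to 1.05). The sparse pair stood higher. Atg4c (ENSMUSG00000028550, chromosome 4, 99193934 to 99259787) had 232 and 276 reads, a fold of 1.19 whose interval, 0.998 to 1.43, just holds 1. Atg4a (ENSMUSG00000079418, chromosome X, 140956907 to 141164270), which prefers the GABARAP group, had 150 and 181 reads and a fold of 1.21 (0.969 to 1.51). Folds as high were common at such depth, at 10.7% of genes for Atg4c and 8.89% for Atg4a.

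Of the 6 pairs within the family, 1 had an interval that left out 1, Atg4c over Atg4d at 1.24 (1.02 to 1.51). Atg4a and Atg4c did not differ detectably, with a ratio of 1.01 and an interval from 0.761 to 1.35. By level per length of the longest transcript, Atg4b made up 47.8% of the family in control-vector cells and 45.8% in GR-vector cells, and Atg4d 30.1% and 28.3%. Atg4c made up 11.4% and 13.3%, and Atg4a 10.7% and 12.6%. By the union of exons the share of Atg4b was 35.3% and 33.4% and that of Atg4d 36.0% and 33.4%, so which of them leads depends on the length.

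Reads of Atg4a carry an added doubt. Of its 2678 stretches of 31 bases, 60.8% also occur in Atg4a-ps, a retrocopy on chromosome 3 that itself had 2 reads in control-vector cells and 0 in GR-vector cells, where a count of 0 allows up to 3. How reads matching both places were handled is not given in the sources used here. The 4 Atg4 genes share 0 such stretches with each other. Atg4d shares 16.5% of its stretches with Kri1, a gene on the opposite strand that overlaps it and had 291 and 299 reads. Thap4 (276 and 294 reads) overlaps Atg4b on the opposite strand as well, and strand handling is not given either. For the other 8 genes the shared part ran from 0.0425% for Atg5 to 2.33% for Atg16l1.

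**Figure D3:**
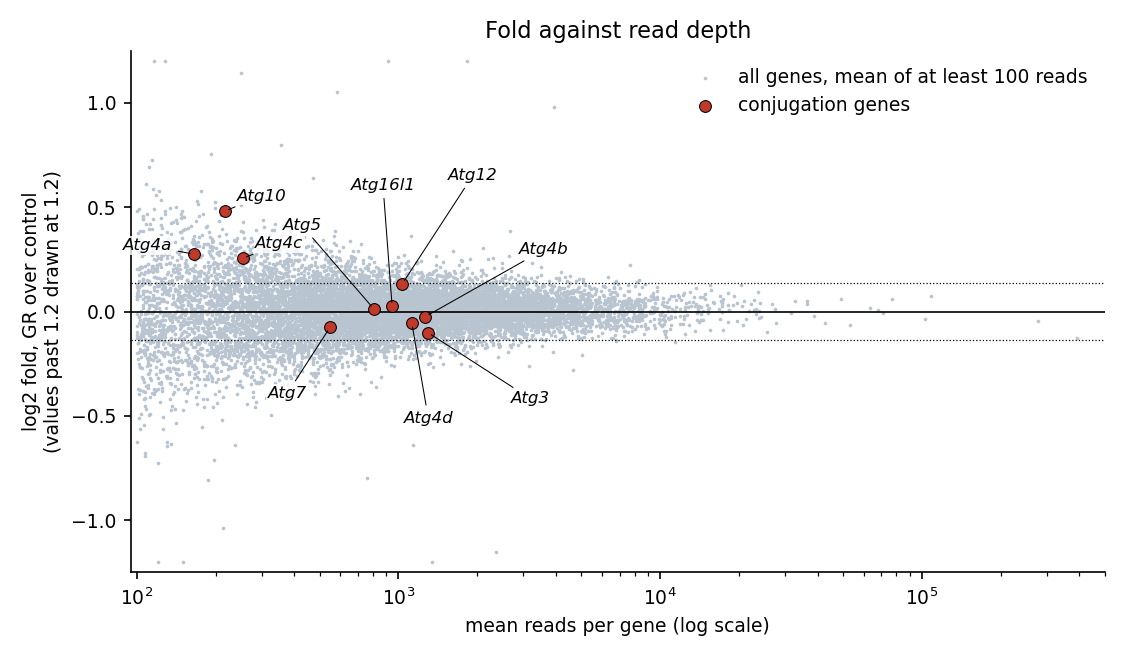
Log2 fold (vertical axis, values past 1.2 drawn at 1.2) against mean reads (horizontal axis, log scale) for 11070 genes in grey and the 10 genes in red, with dotted lines at 1.1-fold. The grey cloud widens toward few reads, where Atg10, Atg4a and Atg4c lie, and Atg10 sits at its upper edge with a log2 fold of 0.48.

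Over the whole list, 6 genes lay above 1 and 4 below. The median log2 fold was 0.018, beside 0.0042 over the 11070 genes. Intervals left out 1 for 2 genes, Atg10 and Atg12, and those of 19.5% of the 11070 genes did so. The 10 genes together had 7626 reads in control-vector cells and 7687 in GR-vector cells, a fold of 1.01 (0.979 to 1.04). The authors' adjusted p under 0.05 was met by 0 members and by 4 of the 21542 genes, or 0.0186%. The authors' unadjusted p-values match an exact test of edgeR with a preset dispersion of 0.04, so they rest on an assumed spread. They say little of the members, because each vector has 1 library.

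Folds were higher at lower GC content in most of the list, with Atg3 as the exception. The 3 genes past 1.1-fold and Atg12 had 40.3% (Atg10), 42.2% (Atg4a), 44.0% (Atg4c) and 44.3% (Atg12), followed by Atg5 at 44.6% and Atg16l1 at 45.3% with folds near 1. Atg4b (49.5%), Atg7 (53.0%) and Atg4d (54.5%) had the highest GC content and folds under 1. Atg3 was outside this order, with the lowest GC content, 40.1%, and the lowest fold. The part of GC content in single folds was not tested beyond taking out its trend over all genes. With the trend of fold on GC content removed, Atg10 stood at 1.34, Atg4a at 1.17, Atg4c at 1.16 and Atg12 at 1.06. Atg3 then stood at 0.892 and passed the 1.1-fold limit on the lower side, which made 4 genes past it in place of 3.

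Levels of different genes were compared as RPKM, reads scaled to the length of the longest annotated transcript and to the library size after TMM scaling. Atg3 was the most abundant, at 34.8 (exact 95% Poisson interval 32.9 to 36.7) in the control library and 32.4 (30.7 to 34.3) in the GR library. Next in the control library came Atg5 at 18.4 (17.2 to 19.8) and Atg4b at 16.5 (15.6 to 17.4), whose intervals overlap. Atg16l1 followed at 13.5 (12.6 to 14.4). Atg12 at 11.2 (10.5 to 11.9) and Atg4d at 10.4 (9.79 to 11.005) overlapped too.

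At the low end stood the enzymes that act first and the sparse proteases. Atg7 was at 7.79 and Atg10 at 6.16 in the control library, and at 7.39 and 8.60 in the GR library, so by this length the order of the pair differed between the libraries. Their intervals met in the GR library (6.78 to 8.05 and 7.57 to 9.73) but not in the control library (7.16 to 8.46 and 5.30 to 7.13). By the union of exons Atg10 was above Atg7 in both, at 5.68 against 4.35 in the control library and 7.93 against 4.13 in the GR library. Atg4c at 3.93 and Atg4a at 3.67 came last, with overlapping intervals. Transcripts of Atg3 were thus more abundant than those of Atg10 in both libraries, by an amount that rests on the length used. By the longest transcript the levels were 34.8 against 6.16 in the control library and 32.4 against 8.60 in the GR library. By the union of exons they were 22.9 against 5.68 and 21.4 against 7.93.

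Several places rest on the length used. By the union of exons in the control library, Atg16l1 moved from 4th to 7th (13.5 to 5.26), Atg4b from 3rd to 4th (16.5 to 8.33) and Atg4d from 6th to 3rd (10.4 to 8.51), while Atg12 kept place 5. For Atg12 the deposited table gives 2492 bases, while its longest GENCODE transcript has 4765 and its exons together 7711. With the deposited length its level was 21.3 in control-vector cells and 23.4 in GR-vector cells, which is 2nd after Atg3 in control-vector cells and 1st in GR-vector cells. For the other 9 genes the deposited length equalled the union of GENCODE exons.

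**Figure D4:**
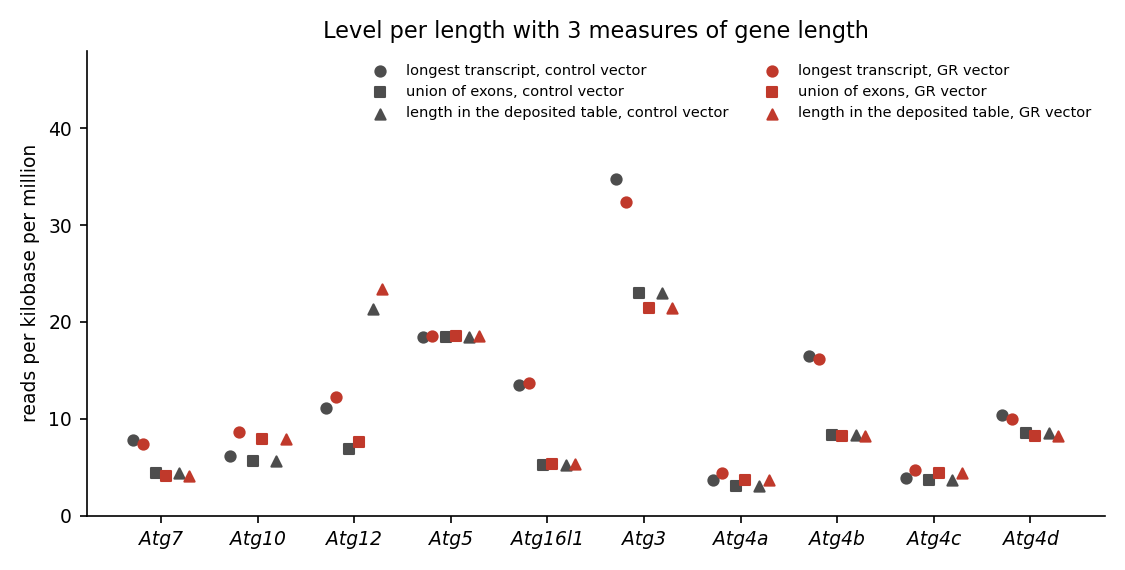
Level of each gene in RPKM (vertical axis) for the control vector (grey) and the GR vector (red), with circles for the longest transcript, squares for the union of exons and triangles for the deposited length. Atg12 runs from 6.90 to 21.3 in the control library by the length chosen, whereas Atg5 stays at 18.4 with each.

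Neighbouring genes on the chromosome gave a further set of values. Atg3 begins 79 bases from Slc35a5, a gene of the nucleotide sugar transporter family read in the other direction, which had 991 and 1042 reads (fold 1.05, 0.966 to 1.15). Atg4a begins 179 bases from Psmd10, a proteasome assembly chaperone gene with 286 and 308 reads (fold 1.08, 0.916 to 1.27). Ap3s1, an adaptor subunit gene 297 bases from Atg12, had 972 and 936 reads (fold 0.966, 0.882 to 1.06). Beside Atg10 lay Rps23, a ribosomal protein gene, with 3254 and 3143 reads (fold 0.969, 0.922 to 1.02).

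The substrates of the system, the Atg8 proteins, stood close to 1. All 5 genes lay within 1.1-fold, with a median log2 fold of -0.019. Gabarap had 5510 and 5422 reads, Map1lc3b 3396 and 3441, Gabarapl1 2403 and 2363, and Gabarapl2 2258 and 2301. Map1lc3a, with 1299 and 1189 reads, was the lowest at a fold of 0.918 (0.848 to 0.994). The 6 genes grouped here as conjugation partners had a median log2 fold of 0.0032. The grouping does not mean that each binds the Atg12-Atg5-Atg16l1 complex. Wdr45b, a phosphoinositide-binding protein gene, had 1135 and 1260 reads and a fold of 1.11 (1.03 to 1.21). Wipi2, which recruits Atg16l1, had 2984 and 2831 (0.951), Wipi1 1469 and 1546 (1.06), Wdr45 330 and 305 (0.927), Tecpr1 1076 and 1021 (0.952) and Atg16l2, the paralog of Atg16l1, 737 and 792 (1.08).

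Upstream steps of autophagy showed values of the same size. All 5 initiation complex genes lay within 1.1-fold, from Atg13 (1573 and 1490 reads, the lowest) through Ulk1 (0.964), Ulk2 (0.967) and Atg101 (1.01) to Rb1cc1, which encodes FIP200 (1171 and 1241, 1.06). In the lipid kinase complex, Nrbf2 had 241 and 274 reads and a fold of 1.14 (0.955 to 1.36), while Becn1 (0.976), Pik3r4 (0.977), Pik3c3 (1.01), Uvrag (1.01) and Atg14 (1.04) lay nearer 1. The lipid transfer and scramblase genes Atg2a (0.968), Atg2b (0.954), Atg9a (1.01), Vmp1 (1.04) and Tmem41b (1.06) were all within 1.1-fold, as was the sparse Atg9b with 33 and 32 reads.

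Among transcription factors that control autophagy genes, Tfe3 had 999 and 1099 reads (fold 1.103, 1.012 to 1.203) and Zkscan3, a repressor, 1273 and 1143 (0.900, 0.831 to 0.976). Tfeb had 393 and 403 reads, Foxo1 782 and 800, Foxo3 1937 and 1874, and Mitf 4 and 2. Over these 6 lists, 32 of 34 genes averaged 100 reads or more, of which 3 were at least 1.1-fold higher and 1 lower. Those counts lie near or under the 10.7% and 10.4% of all such genes. E1 and E2 enzymes of other ubiquitin-like modifiers, 13 genes, had a median log2 fold of 0.0059. Uba1, the E1 of ubiquitin, had 10351 and 10086 reads and Sae1, of the SUMO pathway, 4257 and 4353. Mocs3 was the lowest at 0.887 (0.764 to 1.03).

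**Figure D5:**
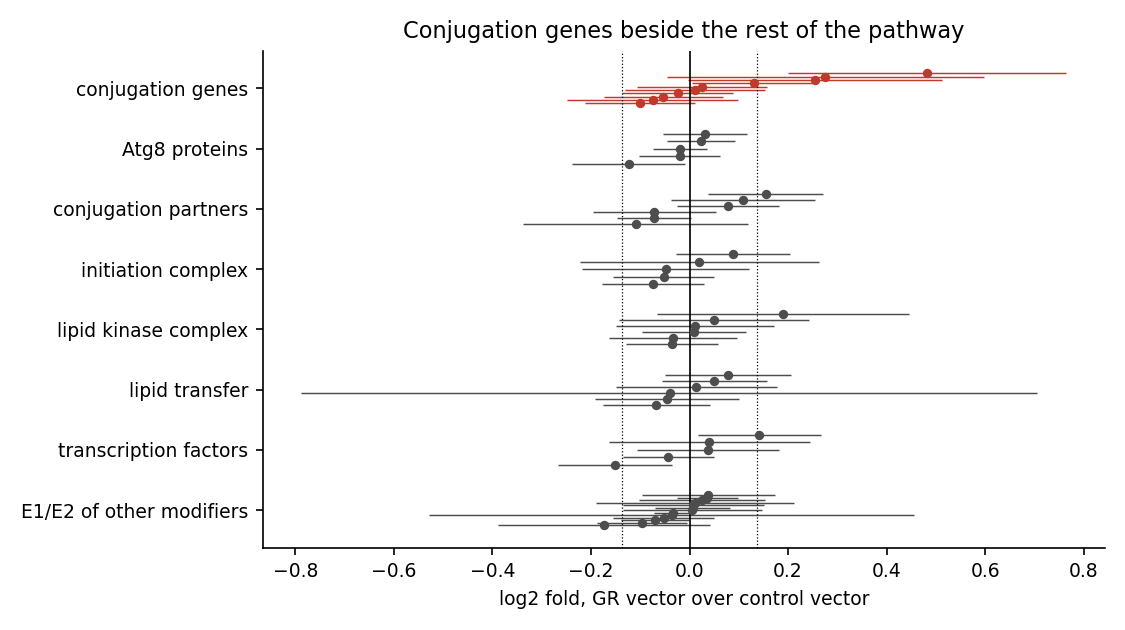
Log2 fold with exact 95% counting intervals for the 10 genes (red) and for genes of the 7 other lists with at least 50 reads in both libraries together (grey), 1 point per gene, with dotted lines at 1.1-fold. Atg10 is the farthest point of the plot from 0.

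The authors' deposited enrichment files rank genes by the ratio of GR to control reads and include one autophagy set with its members. All 10 genes are in that set of 32, and all 10 are marked there as leading its score, among them the 4 whose ratio is under 1. The authors' report counts 97% of the whole set as leading, so the mark does not set the 10 genes apart. The authors' running score was still -0.033 at Atg10 (rank 4210) and -0.011 at Atg4a (rank 5065). It stood at 0.312 at Atg5 (rank 10898) and reached its maximum of 0.699 at Atg3 (rank 16397), the gene with the lowest ratio among the 10. In the all-gene table, 15183 of 21542 genes (70.5%) have a ratio above that of Atg3, and the authors' report places the maximum at 30% of its ranked list. The set's last gene has rank 26661 in the authors' deposited ranking, which therefore holds more entries than the 21542 genes of the table. In that deposited report the set had a normalized score of 1.05, a nominal p listed as 0 and an FDR q of 1.00.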

How the data were processed

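Messenger RNA of 1 control vector library and 1 GR vector library of MIN6 cells was analysed. The authors deposited, per gene and library, a normalized signal that is a read count divided by 1 factor per library. All values (100%) were whole multiples of 1 step within 0.01 reads, so whole reads were recovered. The table also holds the authors' deposited log2 fold change and p-values (unadjusted and adjusted), and the enrichment files hold the authors' deposited ratio of reads per gene, set scores and q-values. Per the submitters' processing notes, DESeq2 1.10.1 was used, although the deposited unadjusted p-values matched an exact test of edgeR, as given below. The aligner, counting, strand handling and genome build were not given in the sources used here.

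The members and lists were chosen with earlier results of these data known. The named genes are all members, Nr3c1, all genes of pathway lists of 6 or fewer, and from the longer list the 2 most read, the highest and the lowest fold; flanking genes are the nearest on each side averaging at least 50 reads, and those named were picked with values known. Some genes that these rules name are not reported here. Folds use TMM-scaled library sizes (edgeR 4.0.16) with exact Clopper-Pearson intervals (scipy 1.17.1), and a call means at least 1.1-fold; with 1 library per group no replicate test could be run. The deposited p-values were compared with edgeR's exact test on the recovered reads at a preset dispersion of 0.04 (a coefficient of variation of 20%), and differed by at most 4.5e-08. That test called 4 genes over the whole table at an adjusted p under 0.05, 16 at a dispersion of 0.01 and 0 at 0.16. The GC trend is the median in 20 bins. Gene models are those of GENCODE M21 (GRCm38), in which 96.8% of the 21516 matched identifiers had the table's coordinates; promoter windows are from RefSeq. The fold and interval code was tested on simulated data.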

Additional observations from a re-analysis of the deposited data

How the results depend on the processing

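The 3 genes past 1.1-fold were 3 under total-read scaling, DESeq2 size factors, centring on the median gene, the authors' deposited log2 fold change and their deposited ratio. They were 2 at 1.2-fold and 2 without Atg4a, which shares 25% or more of its 31-mers, and 4 with the GC trend removed. The shares of all genes past 1.2-fold, or with the GC trend removed, are not given here. Among genes with a mean of 100 to 300 reads, 8.89% had a fold at or above the 1.21 of Atg4a. For single genes, the 5 alternatives of scaling or source multiply all folds by nearly the same factor close to 1 and so test little. The median log2 fold of 0.018 was between 0.011 and 0.015 with the other scalings or without Atg4a, -0.011 with the GC trend removed and -0.024 over the members averaging at least 500 reads, so its sign differed between settings. With 99% intervals, 1 gene (Atg10) in place of 2 left out 1, and the share of all genes at 99% is not given here. The share of all genes past 1.1-fold in either direction was 21.1% at a mean of 100 reads or more and 50.5% with no filter on reads. By the deposited gene length Atg12 was in place 2 of the control levels in place of 5. The GC trend, the limit on shared 31-mers and the deposited length were chosen after the data were seen. No paired analysis was possible because each vector has 1 library. Reads per gene limit the precision: at 150 and 181 reads the interval of Atg4a ran from 0.969 to 1.51.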
